A study of Mus musculus with 15 samples.

Results

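The genes of the collagen chains were followed across 15 RNA sequencing libraries of the mouse aorta-gonad-mesonephros (AGM) region, the embryonic tissue in which hematopoietic stem cells (HSCs) mature around the dorsal aorta. A gene was included when its symbol had the form of a collagen alpha chain, such as Col1a1, and 41 of the 28876 listed genes did. Each gene entered by its name alone and not by a measured value. The family, its classes and the lists of partners and markers were chosen with earlier results of these data known. By the class of collagen that the chain builds, 11 genes were fibrillar, 6 were of the basement membrane type IV and 24 were of other kinds. C57BL/6 embryos at E9.5 and E10.5 were dissected into the dorsal part (E9 AoD, E10 AoD) and the ventral part (E9 AoV, E10 AoV) of the aortic tissue, and at E10.5 the urogenital ridges were taken apart (E10 UGR). No treatment or altered allele is named for any group. Each of the 5 groups had 3 libraries, and the tissue came from pools of 15 to 34 embryos over 3 experiments, which the groups may share, so a value is the mean of a mixed tissue from many embryos and not that of a cell type or of 1 animal.

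Collagens are the main structural proteins of the extracellular matrix, and each molecule is a helix of chains that are encoded by separate genes. Fibrillar collagens assemble into the banded fibrils that give connective tissue its strength: types I, III and V in mesenchyme and vessel wall, and types II and XI in cartilage and around the notochord. Type IV collagen forms the network of basement membranes under epithelium and endothelium, including those of vessels. Among the others, the fibril-associated collagens (types IX, XII, XIV and their relatives) sit on the surface of fibrils, type VI forms beaded filaments, type VIII forms short-chain networks of vessel wall and cornea, types XV and XVIII link basement membranes to the matrix beneath, and types XIII, XVII, XXIII and XXV span the cell membrane.

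Levels are given in RPM, reads of a gene scaled to a common total of mapped reads per library and not corrected for gene length, and a level per kb of the longest coding transcript is used wherever genes are compared with each other. The depth of a library, inferred from the smallest step between its low values, lay between 33.8 and 48.6 M reads, and 3 reads were worth between 0.0617 and 0.0889 RPM. Of the 41 genes, 37 reached 0.5 RPM in at least 1 library and were tested. Col4a3, Col6a6, Col10a1 and Col28a1 did not, and their highest value in any library was 0.493, 0.259, 0.216 and 0.351 RPM. Differences were tested with limma on log2(RPM + 0.1) over all 18553 genes that passed the same filter, with Benjamini-Hochberg adjustment. A gene was called when its adjusted p was under 0.05 and its fold change at least 2, and a log2 fold change is always on this scale, with its standard error (SE). The tissues differed in markers of other cell types. The summed level of 5 sclerotome markers was between 642 and 794 RPM in E10 AoD and at most 122.6 RPM in both AoV groups. The 4 notochord markers summed to between 144 and 168 RPM in E10 AoD and to at most 3.11 RPM in E10 AoV. At E9.5 they summed to between 61.5 and 70.4 RPM in AoD and to between 54.0 and 67.8 RPM in AoV. The 6 gut and liver markers summed to between 498 and 718 RPM in E9 AoV and to at most 56.4 RPM elsewhere. Neural tube markers were highest in E9 AoD, the group poorest in collagen transcripts: 5 markers summed to between 173 and 366 RPM there, to between 40.2 and 72.4 RPM in E10 AoD and to at most 16.1 RPM elsewhere. Of these 5, 4 fell in E10 AoD against E9 AoD (median log2 fold change -4.19), 5 were lower in E9 AoV than in E9 AoD (median -4.41), and 4 had a positive interaction of stage and position. The 6 urogenital ridge and coelomic markers summed to between 496 and 518 RPM in E10 AoV, 600 and 672 in E10 UGR and at most 99.8 elsewhere. In E10 AoV against E9 AoV 4 of these 6 rose and none fell (median 1.80). The part of any of these markers' cells in the collagen differences was not tested. Fewer cells of a type and less RNA per cell cannot be told apart in such bulk tissue.

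Collagen transcripts made up a varying share of the libraries. Summed over the 41 genes, the level was 2271 ± 257 RPM in E9 AoD (SD, n = 3) and 5361 ± 93.8 RPM in E10 AoD. Ventrally it was 4931 ± 127 RPM at E9.5 and 4005 ± 143 RPM at E10.5, and in E10 UGR 2620 ± 146 RPM. These sums correspond to 0.227% of the reads in E9 AoD and 0.536% in E10 AoD. The dorsal tissue was thus the poorest in collagen transcripts at E9.5 and the richest at E10.5, and no library of either stage overlapped the other. Fibrillar chains carried most of this: they summed to 1098 ± 170 RPM in E9 AoD and 3226 ± 70.7 RPM in E10 AoD, to 3267 ± 78.6 RPM in AoV at E9.5 and 2300 ± 77.0 RPM there at E10.5, and to 1269 ± 94.6 RPM in E10 UGR. The type IV chains varied less, from 696 ± 67.9 RPM in E9 AoD to 1170 ± 14.7 in E10 AoD. The other 24 genes together went from 477 ± 22.3 RPM in E9 AoD to 966 ± 53.4 in E10 AoD. The sums are descriptions and were not tested.

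**Figure D1:**
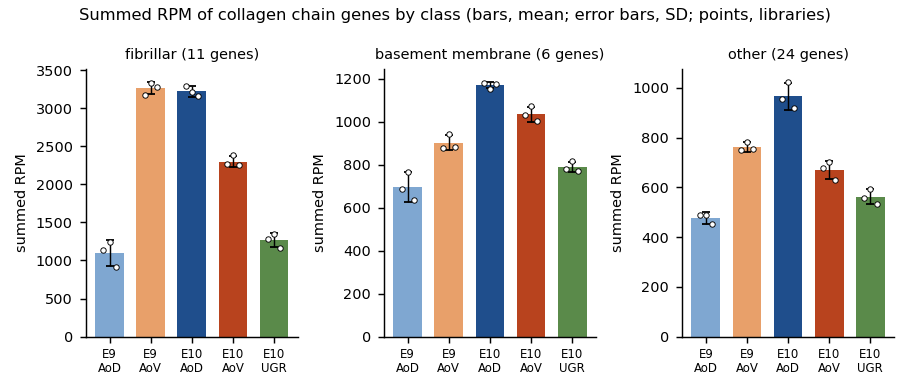
Summed level in RPM of the fibrillar, basement membrane and other collagen chain genes in each of the 15 libraries, by group. Bars are group means, error bars the SD over 3 libraries, and points the libraries. The fibrillar sum is low in E9 AoD and E10 UGR and reaches its highest values in E9 AoV and E10 AoD.

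Of the 37 tested genes, 28 were called in at least 1 of the 7 comparisons, 26 in at least 2, and 9 in none. A single comparison called between 7.57% and 12.6% of all tested genes. The share of all tested genes called in at least 1 or 2 of the 7 comparisons was not computed. The counts of 28 and 26 thus have no like share beside them. E10 AoD held the highest mean of 18 of the 37 genes and E9 AoV that of 13. E10 AoV was highest for 5 genes, E10 UGR for 1 (Col15a1) and E9 AoD for none. The lowest mean fell in E9 AoD for 18 genes and in E10 UGR for 8, beside 33.1% and 8.27% of all tested genes. Among all tested genes the highest mean lay in E9 AoD for 29.6%, in E10 AoD for 15.9% and in E9 AoV for 13.6%. It lay in E10 AoV for 19.1% and in E10 UGR for 21.8%.

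**Figure D2:**
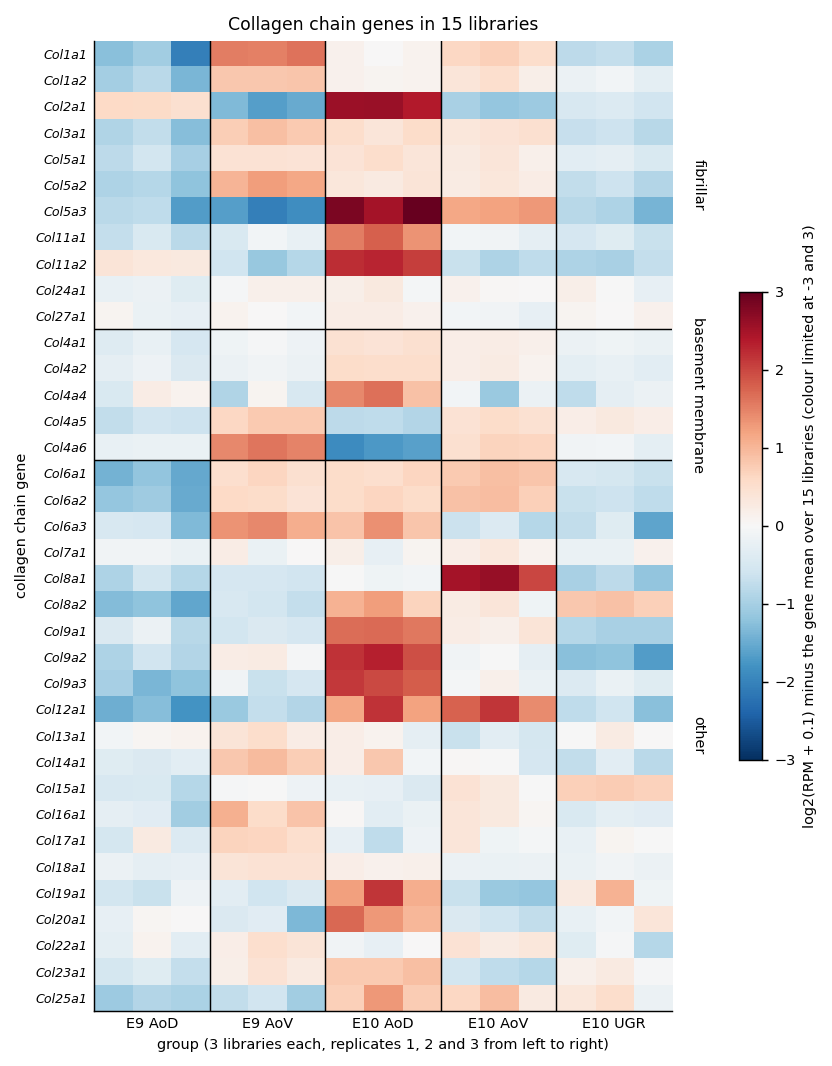
Level of the 37 tested collagen chain genes in the 15 libraries, as log2(RPM + 0.1) minus the mean of that gene over all libraries, with genes ordered by class and colours limited at -3 and 3. The libraries of E10 AoD and E9 AoV hold most of the high values, and those of E9 AoD most of the low ones.

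The stage comparison in dorsal tissue called more collagen genes than any of the other 6 comparisons. In E10 AoD against E9 AoD 22 of the 37 genes rose and 1, Col4a6, fell, while 12.6% of all tested genes were called, 8.60% higher. The genes that rose were 9 of the 11 fibrillar chains, 1 of the 5 tested type IV chains and 12 of the 21 tested others. The median log2 fold change of the 37 genes was 1.36, beside -0.0019 over all genes tested. The 5 that rose most were Col5a3 (log2 fold change 3.86, SE 0.214, adjusted p = 3.01e-09), Col9a3 (3.17, SE 0.15, adjusted p = 8.44e-10), Col12a1 (3.03, SE 0.255, adjusted p = 1.50e-07), Col9a2 (2.94, SE 0.146, adjusted p = 1.13e-09) and Col8a2 (2.34, SE 0.149, adjusted p = 1.04e-08).

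In ventral tissue few collagen genes crossed the same limits over that day. In E10 AoV against E9 AoV 6 of the 37 genes were called, 4 higher and 2 lower, beside 11.0% of all tested genes (6.04% higher and 4.99% lower), and the median over the 37 was -0.02, beside -0.0016 over all genes. Col5a3 (3.09, SE 0.214, adjusted p = 3.24e-08), Col8a1 (2.9, SE 0.155, adjusted p = 2.88e-09), Col12a1 (2.68, SE 0.255, adjusted p = 8.29e-07) and Col25a1 (1.40, SE 0.201, adjusted p = 4.99e-05) rose. Col6a3 (-1.94, SE 0.274, adjusted p = 4.24e-05) and Col23a1 (-1.02, SE 0.0992, adjusted p = 1.03e-06) fell, the latter only just: its log2 fold change was -0.95 when either E9 AoV replicate 2 or E10 AoV replicate 3 was left out.

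The difference between these stage changes, AoV minus AoD, was tested as an interaction. It was called for 21 of the 37 genes, 20 of them negative and 1 positive, beside 11.0% of all tested genes (6.89% negative and 4.12% positive). The 21 were 8 fibrillar chains, 1 type IV chain and 12 others, and the median over the 37 genes was -1.36, beside 0.0147 over all genes. The most negative values belonged to Col6a3 (-3.72, SE 0.388, adjusted p = 5.78e-06), Col9a2 (-3.21, SE 0.206, adjusted p = 6.63e-08), Col9a3 (-2.77, SE 0.212, adjusted p = 3.44e-07), Col1a1 (-2.48, SE 0.244, adjusted p = 3.29e-06) and Col19a1 (-2.48, SE 0.446, adjusted p = 0.000688). The positive value belonged to Col8a1 (2.19, SE 0.22, adjusted p = 3.97e-06). The same 3 E9 AoD libraries enter this test, E10 AoD against E9 AoD, and E9 AoV against E9 AoD. E9 AoD held the lowest mean of 18 of the 37 genes, and these sets of calls are not independent.

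**Figure D3:**
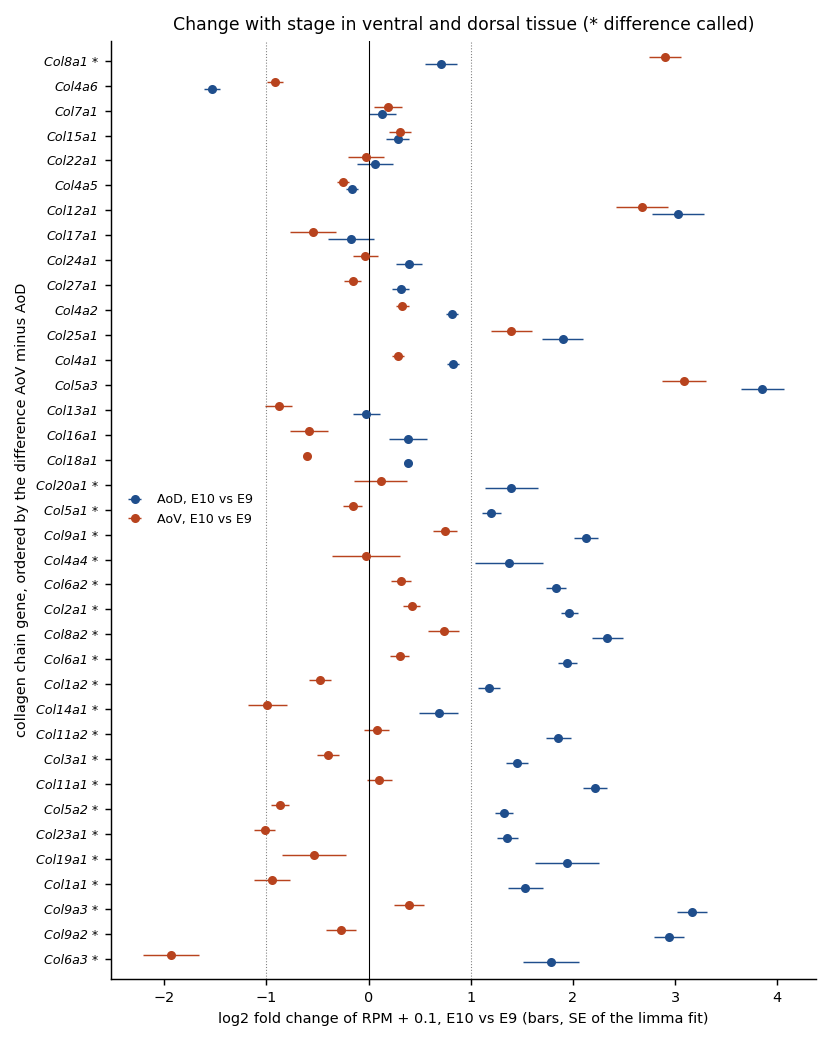
Log2 fold change of E10.5 over E9.5 of each tested collagen chain gene, in AoD and in AoV, with bars of 1 SE from the limma fit; an asterisk marks genes whose stage changes differed between AoD and AoV (interaction called). Most AoD values lie above 1, while most AoV values lie between -1 and 1.

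Between dorsal and ventral tissue, most called collagen genes were higher in AoV at E9.5 and lower in AoV at E10.5, but these were mostly different genes. In E9 AoV against E9 AoD 12 of the 37 genes were higher and 2 lower, beside 11.8% of all tested genes called (8.32% higher and 3.47% lower), with a median of 0.61 over the 37 and 0.0183 over all genes. In E10 AoV against E10 AoD 3 were higher and 12 lower, beside 10.1% of all tested genes (5.81% higher and 4.29% lower), with a median of -0.32 over the 37 and 0.0174 over all genes. At E9.5 the chains higher in AoV were those of types I and III, Col5a1, Col5a2, Col4a5, Col4a6, the type VI chains, Col14a1 and Col16a1, and the 2 lower ones were Col2a1 and Col11a2. At E10.5 Col4a5, Col4a6 and Col8a1 were higher in AoV, and Col2a1, Col11a1, Col11a2, Col5a3, Col4a4, Col6a3, Col9a1, Col9a2, Col9a3, Col19a1, Col20a1 and Col23a1 were lower. Of the 12 genes higher in E9 AoV, 1, Col6a3, was lower in E10 AoV, while Col4a5 and Col4a6 were higher and Col2a1 and Col11a2 lower in AoV at both stages. Among the largest differences not given further on, Col6a3 (2.06, SE 0.274, adjusted p = 2.06e-05) and Col6a1 (1.91, SE 0.095, adjusted p = 1.50e-09) were higher and Col2a1 (-2.05, SE 0.0807, adjusted p = 5.61e-10) was lower in E9 AoV than in E9 AoD, and Col19a1 (-2.47, SE 0.315, adjusted p = 1.81e-05) was lower in E10 AoV than in E10 AoD. Quantile normalization gave 14 and 15 calls among the 37 genes in these comparisons. Among all tested genes it moved the share higher of those called from 70.6% to 59.4% at E9.5. In E10 AoD against E9 AoD it moved that share from 68.2% to 60.3%, and for the interaction the share positive from 37.4% to 44.6%.

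Against the urogenital ridges both aortic tissues were richer in collagen transcripts. In E10 AoV against E10 UGR 10 of the 37 genes were higher and 1, Col19a1, was lower, beside 7.57% of all tested genes called (3.84% higher and 3.73% lower). In E10 AoD against E10 UGR 16 were higher and 3 lower, beside 11.3% of all tested genes (4.76% higher and 6.56% lower). The medians over the 37 genes were 0.36 and 0.89, beside -0.0465 and -0.0547 over all genes. Both comparisons share the same E10 UGR libraries. Of 6 markers of urogenital ridge and coelomic epithelium, 1 was higher and 2 lower in E10 AoV than in E10 UGR. All 6 were lower in E10 AoD than in E10 UGR. The chains lower in E10 AoD than in E10 UGR were Col4a5, Col4a6 (-1.58, SE 0.0792, adjusted p = 9.73e-10) and Col15a1. After Col5a3, those highest in E10 AoD against E10 UGR were Col9a2 (3.53, SE 0.146, adjusted p = 1.65e-10), Col11a2 (3.06, SE 0.125, adjusted p = 1.58e-10), Col2a1 (3.0, SE 0.0807, adjusted p = 2.80e-12) and Col9a1 (2.59, SE 0.117, adjusted p = 3.48e-10). After Col8a1, Col12a1 and Col5a3, those highest in E10 AoV against E10 UGR were Col6a2 (1.52, SE 0.0988, adjusted p = 3.87e-08) and Col1a1 (1.43, SE 0.172, adjusted p = 1.54e-05), and Col19a1 was lower (-1.38, SE 0.315, adjusted p = 0.00391).

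Many more genes had libraries that did not overlap between the groups compared, among collagens and among all genes. This held for 27 of the 37 collagen genes in E10 AoV against E9 AoV (55.0% of all tested genes), 32 in E10 AoD against E9 AoD (60.7%) and 29 in E10 AoV against E10 AoD (49.5%). It held for 28 in E9 AoV against E9 AoD (51.3%), 27 in E10 AoV against E10 UGR (48.6%) and 30 in E10 AoD against E10 UGR (50.9%). In the dorsal stage comparison 30 of the 32 were higher at E10.5, and in E9 AoV against E9 AoD 25 of the 28 were higher in AoV.

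Col1a1 and Col1a2 encode the chains of type I collagen, the most abundant collagen of mesenchyme, on chr11:94797538-94814356 and chr6:4454814-4491543 (NCBIM37). Col1a1 measured 124, 142 and 71.0 RPM in E9 AoD, 857, 845 and 913 in E9 AoV, 322, 296 and 319 in E10 AoD, 454, 481 and 424 in E10 AoV, and 172, 180 and 153 in E10 UGR. All 5 groups stood apart from one another, with E9 AoV at the top and E9 AoD at the bottom. Col1a1 rose dorsally (log2 fold change 1.53, SE 0.172, adjusted p = 2.78e-06) and was higher in E9 AoV than in E9 AoD (3.01, SE 0.172, adjusted p = 4.85e-09), the largest dorsal to ventral difference of any collagen gene at E9.5. In AoV its stage change was -0.95 (SE 0.172, adjusted p = 0.000409), short of the fold of 2. Col1a2 followed in a narrower range, 149, 173 and 117 RPM in E9 AoD, 537, 533 and 541 in E9 AoV, 331, 325 and 326 in E10 AoD, 390, 429 and 343 in E10 AoV, and 269, 288 and 247 in E10 UGR. It too rose dorsally (1.18, SE 0.109, adjusted p = 3.97e-07) and was higher in E9 AoV than in E9 AoD (1.89, SE 0.109, adjusted p = 5.21e-09). The ratio of Col1a1 to Col1a2 per kb was not constant: it was 0.679 ± 0.114 in E9 AoD and 0.86 ± 0.0339 in E10 AoD, against 1.46 ± 0.0507 in E9 AoV, 1.06 ± 0.0524 in E10 AoV and 0.566 ± 0.00929 in E10 UGR (SD, n = 3). The E9 AoV ratios, between 1.43 and 1.52, lay above those of every other library.

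Col3a1 encodes the chain of type III collagen, which is laid down with type I in distensible tissue such as vessel wall, and it lies beside Col5a2 on chromosome 1, at chr1:45368383-45406551. It was the most abundant collagen per kb in 4 of the 5 groups. Col3a1 measured 361, 410 and 279 RPM in E9 AoD, 1140, 1270 and 1170 in E9 AoV, 975, 873 and 994 in E10 AoD, 857, 904 and 956 in E10 AoV, and 420, 441 and 379 in E10 UGR. E10 AoD and E10 AoV overlapped, both stood above E10 UGR, and E9 AoV stood above all others. The dorsal rise was 1.45 (SE 0.108, adjusted p = 4.40e-08), the difference between E9 AoV and E9 AoD 1.79 (SE 0.108, adjusted p = 7.96e-09), and that between E10 AoV and E10 AoD -0.06 (SE 0.108, adjusted p = 0.69).

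Type V collagen starts fibrils and limits their width, and its chains did not move as 1 group. Col5a2 measured 63.4, 66.5 and 51.6 RPM in E9 AoD, 243, 285 and 268 in E9 AoV, 153, 144 and 157 in E10 AoD, 143, 152 and 141 in E10 AoV, and 71.6, 78.4 and 65.5 in E10 UGR. This order was that of Col3a1, with E9 AoV on top and the 2 E10.5 aortic groups overlapping. Col5a1 measured 110, 130 and 95.4 RPM in E9 AoD, 256, 257 and 250 in E9 AoV, 252, 273 and 242 in E10 AoD, 229, 245 and 212 in E10 AoV, and 153, 158 and 137 in E10 UGR, with E10 AoD overlapping both AoV groups. In E9 AoV against E9 AoD Col5a2 was higher by 2.14 (SE 0.0885, adjusted p = 6.72e-10) and Col5a1 by 1.2 (SE 0.091, adjusted p = 7.52e-08). The ratio of Col5a1 to Col5a2 per kb was 0.759 ± 0.0632 in E9 AoV and between 1.18 and 1.68 in each library of the other groups.

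Col5a3, a chain of type V that is less widely expressed than the other two, had another pattern. It measured 3.61, 3.73 and 1.95 RPM in E9 AoD, 1.96, 1.48 and 1.69 in E9 AoV, 46.4, 36.7 and 51.5 in E10 AoD, 14.5, 15.0 and 16.1 in E10 AoV, and 3.58, 3.31 and 2.37 in E10 UGR. Both aortic tissues of E10.5 stood clear of all other libraries, and E10 AoD stood clear of E10 AoV. Its mean was 14.5 times higher in E10 AoD than in E9 AoD and 8.89 times higher in E10 AoV than in E9 AoV, and the test of the difference between these stage changes gave -0.77 (SE 0.303, adjusted p = 0.074). E10 AoD exceeded E10 UGR by 3.83 (SE 0.214, adjusted p = 3.22e-09) and E10 AoV exceeded it by 2.28 (SE 0.214, adjusted p = 1.34e-06). Per kb, Col5a3 was 0.0375 ± 0.00866 of Col5a1 in E9 AoD and 0.243 ± 0.0545 in E10 AoD.

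Markers of smooth muscle and perivascular cells rose in both tissues, more of them in AoD, and types I and III, Col5a1 and Col5a2 rose in AoD alone. The interaction of stage and position was called negative for each of these chains. It was called negative for 4 of 6 such markers and positive for none (median -1.33), beside 6.89% of all tested genes negative. The summed level of 6 smooth muscle and perivascular markers was between 155 and 253 RPM in E9 AoD, 718 and 872 in E10 AoD, 564 and 568 in E9 AoV, 1051 and 1118 in E10 AoV, and 262 and 305 in E10 UGR. Of these 6 markers, 5 rose in E10 AoD against E9 AoD and 3 in E10 AoV against E9 AoV, where the log2 fold changes of Col1a1, Col1a2, Col3a1 and Col5a2 were -0.95, -0.48, -0.40 and -0.87. Of 5 macrophage markers 4 rose in each of these comparisons, with medians of 3.94 in AoD and 1.78 in AoV. E9 AoD replicate 3 was the lowest library for Col1a1, Col1a2, Col3a1, Col5a1 and Col5a2, and without it the dorsal stage comparison still called 23 collagen genes. The gut and liver markers were all higher in E9 AoV than in E9 AoD, 6 of 6, with a median log2 fold change of 5.72. The part of these markers' cells in the collagen differences was not tested.

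**Figure D4:**
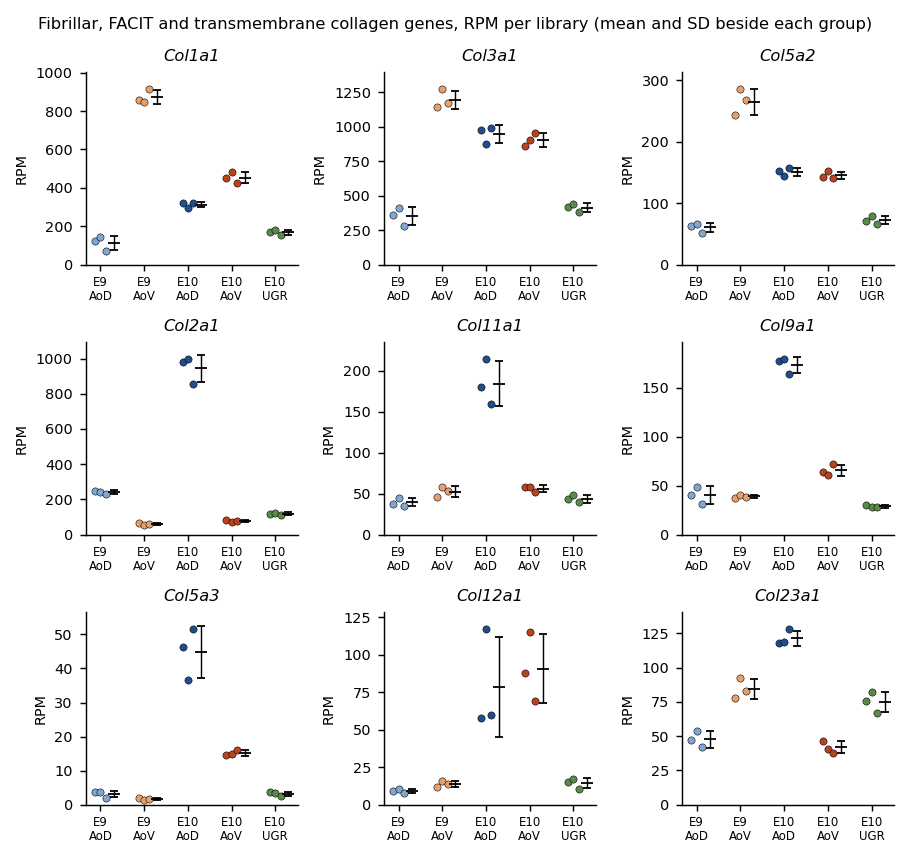
Level in RPM, on linear axes from 0, of 9 fibrillar, fibril-associated and transmembrane collagen chain genes. Points are libraries by group, with the mean and SD (n = 3) beside them. Col1a1, Col3a1 and Col5a2 peak in E9 AoV, Col2a1, Col11a1 and Col9a1 in E10 AoD, and Col5a3 and Col12a1 are high in both aortic groups of E10.5.

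Col2a1, at chr15:97806033-97835155, encodes the chain of type II collagen, the fibril of cartilage and of the notochordal sheath. It measured 250, 244 and 230 RPM in E9 AoD, 65.4, 52.4 and 57.8 in E9 AoV, 981, 995 and 856 in E10 AoD, 84.0, 73.8 and 77.0 in E10 AoV, and 119, 125 and 110 in E10 UGR. The 5 groups did not overlap, and both dorsal groups stood above every other library. In E10 AoD it was the most abundant collagen per kb, 185 ± 15.0 RPM per kb beside 52.7 ± 2.40 for Col1a1. Col2a1 rose dorsally by 1.96 (SE 0.0807, adjusted p = 2.97e-10), and E10 AoV was below E10 AoD by -3.59 (SE 0.0807, adjusted p = 7.76e-13). In AoV its stage change was 0.42 (SE 0.0807, adjusted p = 0.000606). The ratio of Col2a1 to Col1a1 per kb was 2.70 ± 0.937 in E9 AoD and 3.52 ± 0.394 in E10 AoD, against 0.0781 ± 0.00919 in E9 AoV, 0.201 ± 0.0201 in E10 AoV and 0.815 ± 0.0174 in E10 UGR.

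Col11a1 and Col11a2 encode chains of type XI collagen, which forms the core of type II fibrils. Col11a1 measured 37.9, 45.2 and 35.4 RPM in E9 AoD, 45.4, 58.4 and 53.4 in E9 AoV, 180, 214 and 159 in E10 AoD, 58.7, 58.1 and 51.8 in E10 AoV, and 43.8, 48.5 and 39.2 in E10 UGR. Only E10 AoD stood apart. Col11a2 measured 7.20, 6.82 and 6.69 RPM in E9 AoD, 25.6, 27.1 and 23.3 in E10 AoD, 3.60, 2.43 and 2.97 in E9 AoV, 3.42, 2.84 and 3.17 in E10 AoV, and 2.81, 2.73 and 3.29 in E10 UGR, the last 3 groups overlapping. It was dorsal at both stages, lower in E9 AoV than in E9 AoD by -1.19 (SE 0.125, adjusted p = 2.04e-06) and lower in E10 AoV than in E10 AoD by -2.97 (SE 0.125, adjusted p = 3.00e-10). Col11a1 differed between E9 AoV and E9 AoD by 0.41 (SE 0.121, adjusted p = 0.012), in the other direction, and between E10 AoV and E10 AoD by -1.70 (SE 0.121, adjusted p = 4.11e-08). Per kb, Col11a1 amounted to 0.13 ± 0.0117 of Col2a1 in E10 AoD and to 0.606 ± 0.14 in E9 AoV.

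The chains of type IX collagen, which coats type II fibrils, rose with them in dorsal tissue but were not dorsal at E9.5. Col9a1 measured 40.9, 48.8 and 31.1 RPM in E9 AoD, 37.5, 40.6 and 38.9 in E9 AoV, 177, 179 and 164 in E10 AoD, 63.8, 61.3 and 72.3 in E10 AoV, and 30.5, 27.8 and 27.9 in E10 UGR. The 2 groups of E9.5 overlapped, and E10 AoD lay above E10 AoV, which lay above the rest. Col9a2 measured 2.24, 2.88 and 2.31 RPM in E9 AoD, 5.11, 5.17 and 4.25 in E9 AoV, 19.8, 22.4 and 17.0 in E10 AoD, 4.05, 4.32 and 3.61 in E10 AoV, and 1.75, 1.83 and 1.30 in E10 UGR. Col9a3 measured 1.94, 1.46 and 1.66 RPM in E9 AoD, 3.66, 2.44 and 2.78 in E9 AoV, 17.6, 15.9 and 14.2 in E10 AoD, 3.83, 4.44 and 3.42 in E10 AoV, and 2.95, 3.43 and 3.08 in E10 UGR. For both of these chains every E10 AoD library lay above every other library. In E10 AoV against E10 AoD the differences were -1.40 for Col9a1 (SE 0.117, adjusted p = 2.23e-07), -2.27 for Col9a2 (SE 0.146, adjusted p = 1.52e-08) and -2.0 for Col9a3 (SE 0.15, adjusted p = 7.46e-08). The chains were far from equal in level: Col9a1 was between 7.99 and 9.18 times Col9a3 per kb in E10 AoD, while Col9a2 was between 1.17 and 1.47 times Col9a3. Of the 50-base windows of the Col9a3 transcript, 6.07% occur in another gene as well.

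Partners of the cartilage collagens were read beside them, from a list of regulators and matrix proteins of which 9 were tested. In E10 AoD against E9 AoD 5 of the 9 rose and none fell (median log2 fold change 1.26), beside 12.6% of all tested genes called, and in E10 AoV against E10 AoD 4 were lower and 1, Hapln1, was higher (median -0.84), beside 10.1%. Acan, the large proteoglycan of cartilage, measured 1.43, 1.34 and 0.898 RPM in E9 AoD, 18.7, 27.3 and 16.8 in E10 AoD, and 1.48, 1.51 and 1.09 in E10 AoV. It rose dorsally by 3.98 (SE 0.196, adjusted p = 1.08e-09). Sox9, the transcription factor known to switch on Col2a1, rose in both tissues, to 157, 145 and 107 RPM in E10 AoD and to 89.1, 66.4 and 72.1 RPM in E10 AoV, from 53.9, 51.4 and 63.4 RPM in E9 AoD and 23.4, 19.2 and 20.9 RPM in E9 AoV. Sox9 was higher and Col2a1 lower in every E10 AoV library than in every E9 AoD library. Sox5, from the same list, rose in E10 AoD against E9 AoD and was lower in E10 AoV than in E10 AoD. Whether these factors bear on the Col2a1 level was not tested. Matn4, a matrilin that bridges matrix fibers, was highest in E9 AoV, at 7.35, 7.69 and 6.80 RPM beside at most 1.69 RPM elsewhere. Sclerotome markers rose in dorsal tissue, as the cartilage collagens did: 3 of 5 rose in E10 AoD against E9 AoD. In E10 AoV against E10 AoD 3 of 5 were lower and none was higher. In E9 AoV against E9 AoD 4 of 5 were lower and 1, Nkx3-2, was higher (median -2.61). There Col2a1 and Col11a2 were lower, while Col11a1 and the type IX chains were not called. The sclerotome sum was between 434 and 490 RPM in E9 AoD and between 78.8 and 103 RPM in E9 AoV. The 4 notochord markers did not move as 1 group: in E10 AoD against E9 AoD Shh and T rose and Noto and Foxa2 fell (median -0.21), in E9 AoV against E9 AoD T alone was called, lower (median -0.18), and in E10 AoV against E10 AoD Shh, T and Foxa2 were lower and Noto, at 0 in E10 AoV, was not called. Their part in the collagen differences was not tested.

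The type IV chains are encoded in head-to-head pairs. Col4a1 (chr8:11198423-11312826, minus strand) and Col4a2 (chr8:11312805-11449287, plus strand) encode the chains of the general network; their annotated starts lie 21 bases apart with the transcribed sides overlapping, so that reads from the first bases of the pair cannot be told apart without strand. Col4a5 and Col4a6 on chromosome X encode chains of the networks of epithelium and smooth muscle, and their starts lie 1343 bases apart. The sequences before the starts of Col4a5 and Col4a6 are shown because the levels of this pair went together between dorsal and ventral tissue. They are the 250 bases upstream of the annotated start, 5′ to 3′ on the strand of the gene (RefSeq, GRCm38.p6), at chrX:141475169-141475418 for Col4a5 (plus strand) and chrX:141474077-141474326 for Col4a6 (minus strand), with the letters GGGCGG or the reverse complement CCGCCC, the core of a GC box, in capitals.
Col4a5: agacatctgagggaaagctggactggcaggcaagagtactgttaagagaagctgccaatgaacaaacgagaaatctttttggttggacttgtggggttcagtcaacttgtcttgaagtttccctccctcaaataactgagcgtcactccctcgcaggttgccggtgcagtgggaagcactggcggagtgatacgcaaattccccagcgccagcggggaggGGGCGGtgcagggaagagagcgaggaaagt
Col4a6: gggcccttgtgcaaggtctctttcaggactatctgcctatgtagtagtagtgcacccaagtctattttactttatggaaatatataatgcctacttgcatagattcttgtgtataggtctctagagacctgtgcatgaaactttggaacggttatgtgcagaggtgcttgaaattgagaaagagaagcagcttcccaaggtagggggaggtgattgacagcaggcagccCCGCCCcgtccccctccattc
Each of these windows holds 1 match, close to the start. Of the 36 windows of this kind found for 33 of the 41 collagen genes, 20 held the letters on either strand, or 55.6%, beside 32.7% of the windows of all genes. CCAAT was in 12 of the 36 (33.8% of all windows) and TATAAA in 5 of the 36 (12.4% of all windows). The collagen windows held from 35.2% (Col3a1) to 76.4% (Col5a1) G and C. The content of all windows was not computed, so these shares are not corrected for base composition. Col6a2, Col9a1 and Col18a1 have more than 1 window each, and genes such as Col1a1, Col2a1 and Col5a2 have none. A match describes the letters and does not show that a factor binds there.

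Col4a1 and Col4a2 were abundant in every group and were called in no comparison. Col4a1 measured 395, 449 and 364 RPM in E9 AoD, 477, 510 and 471 in E9 AoV, 717, 695 and 722 in E10 AoD, 595, 608 and 576 in E10 AoV, and 457, 477 and 456 in E10 UGR. Col4a2 measured 239, 262 and 214 RPM in E9 AoD, 258, 271 and 256 in E9 AoV, 422, 416 and 416 in E10 AoD, 330, 345 and 313 in E10 AoV, and 236, 248 and 231 in E10 UGR. For both chains E10 AoD was highest and E10 AoV next, with no overlap between those groups. The dorsal stage change was 0.83 for Col4a1 (SE 0.0609, adjusted p = 4.15e-08) and 0.82 for Col4a2 (SE 0.0608, adjusted p = 4.63e-08), past the adjusted p but below a fold of 2. Per kb, Col4a2 stayed between 0.52 and 0.62 of Col4a1 in all 15 libraries. The summed level of 6 endothelial markers was between 284 and 385 RPM in E9 AoD, 566 and 626 in E9 AoV, 593 and 644 in E10 AoD, 615 and 668 in E10 AoV, and 455 and 496 in E10 UGR. Of these 6, 4 rose in E10 AoD against E9 AoD (median log2 fold change 1.09), beside 12.6% of all tested genes called. None was called in E10 AoV against E9 AoV (median 0.14), beside 11.0%. The part of endothelial cells in the Col4a1 and Col4a2 levels was not tested.

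Col4a5 and Col4a6 were ventral at both stages. Col4a5 measured 35.8, 40.2 and 38.5 RPM in E9 AoD, 91.9, 103 and 103 in E9 AoV, 34.4, 35.3 and 32.5 in E10 AoD, 79.9, 87.8 and 82.1 in E10 AoV, and 68.3, 73.3 and 67.9 in E10 UGR. Every dorsal library lay below every ventral and urogenital one. Col4a6 measured 16.2, 16.5 and 16.5 RPM in E9 AoD, 51.4, 57.9 and 53.4 in E9 AoV, 5.07, 5.70 and 6.11 in E10 AoD, 26.4, 30.2 and 29.7 in E10 AoV, and 17.5, 17.9 and 15.5 in E10 UGR. E9 AoV was highest, E10 AoD lowest, and E9 AoD overlapped with E10 UGR. AoV exceeded AoD at E9.5 by 1.38 for Col4a5 (SE 0.0602, adjusted p = 7.53e-10) and 1.72 for Col4a6 (SE 0.0792, adjusted p = 9.47e-10), and at E10.5 by 1.29 for Col4a5 (SE 0.0602, adjusted p = 7.26e-10) and 2.34 for Col4a6 (SE 0.0792, adjusted p = 5.40e-11). Col4a6 was the collagen that fell in dorsal tissue (-1.53, SE 0.0792, adjusted p = 1.62e-09), and its ventral stage change was -0.91 (SE 0.0792, adjusted p = 3.21e-07). Col4a5 was lower in E10 AoD than in E10 UGR by -1.03 (SE 0.0602, adjusted p = 4.67e-09), and by -0.97 with size factors in place of the deposited scaling. Per kb, Col4a6 was 0.423 ± 0.0207 of Col4a5 in E9 AoD and 0.163 ± 0.0203 in E10 AoD, against 0.537 ± 0.024 in E9 AoV, 0.34 ± 0.0155 in E10 AoV and 0.239 ± 0.0138 in E10 UGR. Markers of urogenital ridge and coelomic epithelium were higher in E10 AoV than in E10 AoD, 6 of 6, with sums of 496 to 518 and 50.5 to 73.3 RPM. In E10 UGR they summed to between 600 and 672 RPM. At E9.5 their sums were 91.4 to 96.1 RPM in AoV and 41.9 to 99.8 RPM in AoD, with Upk3b higher and Pax8 and Pax2 lower in AoV. Gut and liver markers (6 of 6) and smooth muscle and perivascular markers (5 of 6) were higher in E9 AoV than in E9 AoD. In E10 AoV against E10 AoD 1 of the former was higher and 1 lower, and 1 of the latter was higher. The part of these markers' cells in the Col4a5 and Col4a6 levels was not tested.

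Col4a4 encodes a chain of the late network of kidney glomerulus and was near the limit of detection. It measured 0.0983, 0.215 and 0.192 RPM in E9 AoD, 0.0456, 0.186 and 0.0951 in E9 AoV, 0.64, 0.753 and 0.402 in E10 AoD, 0.156, 0.0256 and 0.14 in E10 AoV, and 0.0593, 0.123 and 0.141 in E10 UGR. The 3 E10 AoD libraries lay above all others. Its dorsal rise (1.37, SE 0.332, adjusted p = 0.00253) was 0.71 with a pseudocount of 0.5 RPM, and the difference between its stage changes (-1.40, SE 0.469, adjusted p = 0.0375) was not called under 12 of 23 alternatives. Col4a3, its partner in that network, was between 0.0855 and 0.493 RPM throughout.

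**Figure D5:**
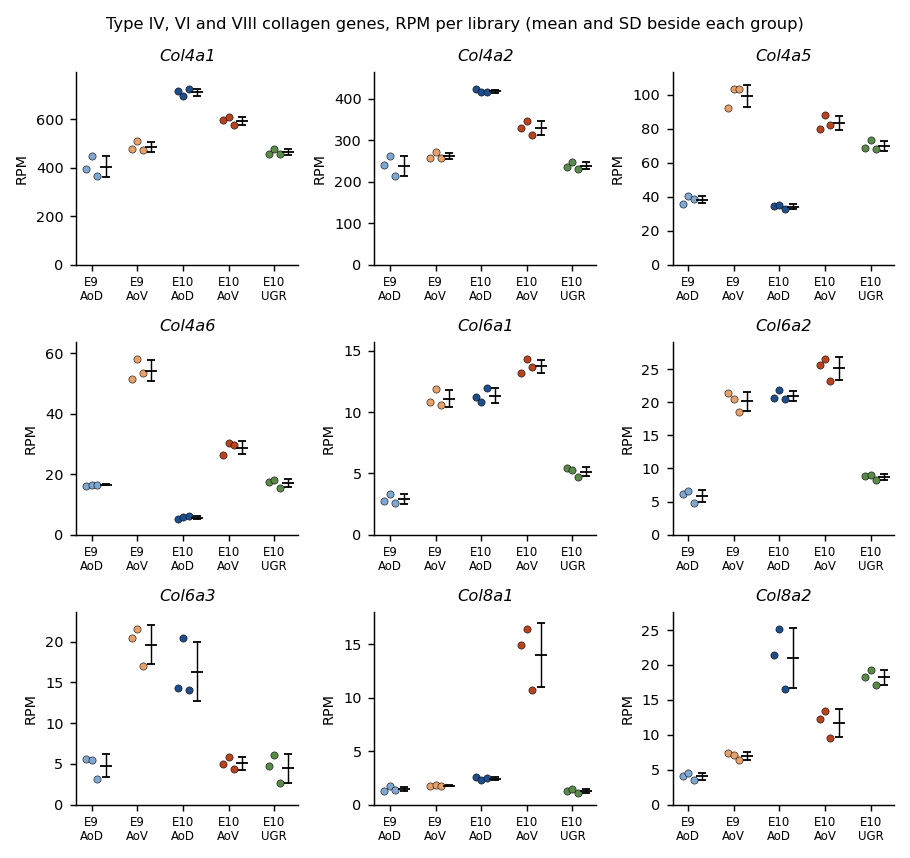
Level in RPM, on linear axes from 0, of 9 type IV, type VI and type VIII collagen chain genes. Points are libraries by group, with the mean and SD (n = 3) beside them. Col4a5 and Col4a6 are low in both AoD groups, Col6a3 departs from Col6a1 and Col6a2 in E10 AoV, and Col8a1 is high in E10 AoV.

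Type VI collagen is built from Col6a1, Col6a2 and a further chain such as Col6a3, and forms beaded filaments around cells of connective tissue and vessel wall. Col6a1 measured 2.78, 3.32 and 2.55 RPM in E9 AoD, 10.8, 11.9 and 10.6 in E9 AoV, 11.2, 10.8 and 12 in E10 AoD, 13.2, 14.3 and 13.7 in E10 AoV, and 5.44, 5.27 and 4.72 in E10 UGR. Col6a2 measured 6.17, 6.61 and 4.83 RPM in E9 AoD, 21.4, 20.5 and 18.5 in E9 AoV, 20.6, 21.8 and 20.5 in E10 AoD, 25.7, 26.5 and 23.2 in E10 AoV, and 8.83, 9.01 and 8.25 in E10 UGR. Both were low in E9 AoD, next lowest in E10 UGR and highest in E10 AoV, and E9 AoV overlapped with E10 AoD. Over the 15 libraries their log2 levels had a Pearson correlation of 0.99, a description over groups that differ in many genes, and Col6a1 per kb stayed between 0.511 and 0.699 of Col6a2.

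Col6a3 did not keep this order. It measured 5.63, 5.51 and 3.12 RPM in E9 AoD, 20.4, 21.5 and 17.0 in E9 AoV, 14.3, 20.5 and 14.1 in E10 AoD, 5.03, 5.88 and 4.31 in E10 AoV, and 4.71, 6.11 and 2.59 in E10 UGR. E10 AoV overlapped with E9 AoD and E10 UGR, whereas E9 AoV and E10 AoD stood above them. In AoV it fell by 1.94 on the log2 scale while Col6a1 differed by 0.31 (SE 0.095, adjusted p = 0.0164) and Col6a2 by 0.32 (SE 0.0988, adjusted p = 0.0161). Per kb, Col6a3 was 0.827 ± 0.0687 of Col6a1 in E9 AoV and 0.173 ± 0.0231 in E10 AoV, and in the other groups its mean ratio lay between 0.401 and 0.766. In E10 AoV against E10 AoD the difference was -1.65 for Col6a3 (SE 0.274, adjusted p = 0.000217), 0.28 for Col6a1 (SE 0.095, adjusted p = 0.0349) and 0.26 for Col6a2 (SE 0.0988, adjusted p = 0.055). E10 AoD replicate 2 was the highest E10 AoD library for Col6a3, Col12a1, Col14a1, Col19a1 and Col25a1. Without it the comparisons that use E10 AoD called between 15 and 23 collagen genes, and the call that was lost in pairwise comparisons was Col19a1 against E10 UGR.

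Col8a1 and Col8a2 encode the chains of type VIII collagen, a short-chain collagen of vessel wall and cornea. Col8a1 (chr16:57624371-57754850, minus strand) was the only collagen gene whose stage change was called greater in AoV than in AoD. The 250 bases upstream of its start (RefSeq, GRCm38.p6, chr16:57754738-57754987, minus strand) are shown as those of this gene, with the same letters in capitals.
Col8a1: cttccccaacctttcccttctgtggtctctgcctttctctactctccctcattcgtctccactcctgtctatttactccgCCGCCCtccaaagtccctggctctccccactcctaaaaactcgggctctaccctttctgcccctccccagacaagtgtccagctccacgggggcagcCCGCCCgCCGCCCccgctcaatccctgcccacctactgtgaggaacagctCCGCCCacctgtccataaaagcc
The window holds 4 matches of CCGCCC. That of Col8a2, whose stage change was called lower in AoV than in AoD, also held 4 matches on either strand. Col8a1 measured 1.30, 1.72 and 1.37 RPM in E9 AoD, 1.78, 1.79 and 1.71 in E9 AoV, 2.54, 2.33 and 2.44 in E10 AoD, 14.9, 16.4 and 10.7 in E10 AoV, and 1.27, 1.46 and 1.07 in E10 UGR. The lowest E10 AoV library lay far above the highest of any other group. E10 AoV exceeded E9 AoV by 2.9, E10 AoD by 2.45 (SE 0.155, adjusted p = 1.34e-08) and E10 UGR by 3.35 (SE 0.155, adjusted p = 2.17e-09). Col8a2 measured 4.15, 4.49 and 3.48 RPM in E9 AoD, 7.41, 7.10 and 6.35 in E9 AoV, 21.5, 25.1 and 16.5 in E10 AoD, 12.3, 13.4 and 9.48 in E10 AoV, and 18.3, 19.3 and 17.1 in E10 UGR. It was thus lower in E10 AoV than in both E10 AoD and E10 UGR, which overlapped. Per kb, Col8a1 was 1.01 ± 0.0439 of Col8a2 in E10 AoV, 0.101 ± 0.0234 in E10 AoD and 0.0587 ± 0.00555 in E10 UGR.

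Among the other fibril-associated chains Col12a1 had the largest stage changes. Type XII collagen is a flexible link between fibrils in tendon, muscle and vessel sheaths. Col12a1 measured 9.29, 10.6 and 7.40 RPM in E9 AoD, 11.9, 15.8 and 14.0 in E9 AoV, 57.9, 117 and 60.1 in E10 AoD, 87.8, 115 and 69.4 in E10 AoV, and 15.1, 17.0 and 10.7 in E10 UGR. The E10.5 aortic groups overlapped with each other and stood above all other libraries. Its stage change was called in both tissues, and the difference between them was -0.35 (SE 0.36, adjusted p = 0.528). E10 AoV exceeded E10 UGR by 2.66 (SE 0.255, adjusted p = 1.70e-06) and E10 AoD exceeded it by 2.40 (SE 0.255, adjusted p = 2.43e-06).

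Col14a1 encodes type XIV collagen, another fibril surface molecule. It measured 9.91, 9.51 and 10.3 RPM in E9 AoD, 22.4, 25.0 and 21.6 in E9 AoV, 14.8, 22.6 and 12.2 in E10 AoD, 13.1, 12.8 and 9.06 in E10 AoV, and 7.70, 10.2 and 7.27 in E10 UGR. E9 AoV was above E9 AoD without overlap, while E10 AoD and E10 AoV overlapped. E9 AoV exceeded E9 AoD by 1.2 (SE 0.192, adjusted p = 0.000115). Col16a1, a minor fibril-associated chain, was higher in E9 AoV, at 7.82, 5.43 and 6.80 RPM, than in E9 AoD, at 3.05, 2.9 and 1.75 RPM (1.37, SE 0.184, adjusted p = 2.28e-05).

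The lowly expressed relatives Col19a1 and Col20a1 were highest in E10 AoD. Col19a1 measured 0.123, 0.107 and 0.192 RPM in E9 AoD, 0.16, 0.116 and 0.143 in E9 AoV, 0.666, 1.35 and 0.592 in E10 AoD, 0.104, 0.0512 and 0.0466 in E10 AoV, and 0.296, 0.576 and 0.197 in E10 UGR. E10 AoV was below the E9.5 libraries and at or near what 3 reads are worth. Its difference between E10 AoD and E10 UGR (1.09, SE 0.315, adjusted p = 0.0123) was 0.76 without E10 AoD replicate 2 (adjusted p = 0.068). Col20a1 measured 0.625, 0.802 and 0.777 RPM in E9 AoD, 0.539, 0.584 and 0.241 in E9 AoV, 2.74, 2.02 and 1.64 in E10 AoD, 0.541, 0.476 and 0.418 in E10 AoV, and 0.638, 0.725 and 1.02 in E10 UGR. Only E10 AoD stood apart. Col20a1 was lower in E10 AoV than in E10 AoD by -1.93 (SE 0.258, adjusted p = 2.85e-05). Col22a1, known from tissue junctions, was between 1.61 and 4.29 RPM and was called nowhere.

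Of the chains that span the cell membrane, Col23a1 had a dorsal peak at E10.5. It measured 47.5, 53.5 and 41.7 RPM in E9 AoD, 78.0, 92.7 and 82.8 in E9 AoV, 118, 119 and 128 in E10 AoD, 46.6, 40.6 and 38.0 in E10 AoV, and 75.8, 82.0 and 67.1 in E10 UGR. E10 AoD was highest, and E9 AoD and E10 AoV overlapped at the bottom. Col23a1 rose in AoD by 1.36 (SE 0.0992, adjusted p = 3.81e-08), and E10 AoV lay below E10 AoD by -1.55 (SE 0.0992, adjusted p = 1.52e-08). Col25a1, which is made by neurons and muscle, rose in both tissues. It measured 6.34, 7.28 and 6.93 RPM in E9 AoD, 8.09, 9.02 and 6.49 in E9 AoV, 22.4, 33.5 and 23.0 in E10 AoD, 21.0, 25.7 and 16.4 in E10 AoV, and 17.2, 19.6 and 11.9 in E10 UGR, with all groups of E10.5 above those of E9.5. Its rise was 1.90 in AoD (SE 0.201, adjusted p = 1.55e-06), and the difference between the stage changes was -0.51 (SE 0.284, adjusted p = 0.217). Col13a1 and Col17a1 were called in no comparison, at 3.48 to 8.09 and 0.276 to 0.912 RPM.

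The multiplexins, Col18a1 and Col15a1, carry the endostatin-type fragment at their end and belong to vascular and epithelial basement membranes. Col18a1 was among the most abundant collagens per kb, at 48.6 ± 1.45 RPM per kb in E9 AoD and 75.8 ± 1.14 in E9 AoV. It measured 318, 300 and 306 RPM in E9 AoD, 472, 485 and 484 in E9 AoV, 415, 395 and 399 in E10 AoD, 317, 313 and 317 in E10 AoV, and 315, 333 and 317 in E10 UGR. E9 AoV and E10 AoD stood apart and the other groups overlapped. The stage change was 0.39 in AoD (SE 0.0367, adjusted p = 5.07e-07) and -0.61 in AoV (SE 0.0367, adjusted p = 9.19e-09), neither reaching a fold of 2, and the difference between them was -0.99 (SE 0.0519, adjusted p = 1.60e-08). Col15a1 was highest in E10 UGR, at 38.1, 39.2 and 37.4 RPM, beside 19.8, 19.3 and 17.0 RPM in E10 AoD and 31.3, 28.1 and 23.0 RPM in E10 AoV. E10 AoD lay below E10 UGR by -1.03 (SE 0.112, adjusted p = 2.90e-06), a value that was -0.97 with size factors.

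The remaining genes differed little. Col27a1 and Col24a1, the fibrillar chains that were not called, were between 21.7 and 30.2 RPM and between 2.61 and 4.19 RPM in all libraries. Col7a1, the anchoring fibril of skin, was between 3.71 and 5.58 RPM. Their log2 fold changes lay between -0.33 and 0.40 in the 6 comparisons of groups.

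Enzymes and proteins that act on collagens were counted by step, and their counts stand beside 12.6% of all tested genes called in E10 AoD against E9 AoD, 11.0% in E10 AoV against E9 AoV, 11.8% in E9 AoV against E9 AoD and 10.1% in E10 AoV against E10 AoD. Of 19 tested genes for hydroxylation, folding and export, 3 rose and none fell in E10 AoD against E9 AoD, 1 rose and 1 fell in E10 AoV against E9 AoV, 4 were higher and none lower in E9 AoV than in E9 AoD, and 2 were higher and 1 lower in E10 AoV than in E10 AoD. In both stage comparisons this is near the share over all genes, and the median log2 fold change was 0.44 in AoD and -0.01 in AoV, beside -0.0019 and -0.0016 over all genes. P4ha3, a subunit of the prolyl hydroxylase that stabilizes the helix, measured 4.94, 5.21 and 2.84 RPM in E9 AoD, 17.6, 22.6 and 19.3 in E9 AoV, 6.33, 5.45 and 5.71 in E10 AoD, 59.0, 63.4 and 66.5 in E10 AoV, and 11.4, 8.92 and 13 in E10 UGR. It was ventral at both stages, and like Col8a1 it rose in AoV (1.67, SE 0.186, adjusted p = 4.03e-06) with a greater stage change there than in AoD (1.2, SE 0.263, adjusted p = 0.00307). Creb3l1, a transcription factor known to act on type I collagen genes, measured 3.24, 3.36 and 1.45 RPM in E9 AoD and 32.5, 29.4 and 30.4 RPM in E9 AoV, a difference of 3.56 (SE 0.212, adjusted p = 6.99e-09). In dorsal tissue Leprel2, a prolyl hydroxylase of collagen, and Plod2, a lysyl hydroxylase that sets the kind of crosslink, rose by 1.28 (SE 0.0577, adjusted p = 5.75e-10) and 1.21 (SE 0.1, adjusted p = 1.32e-07).

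Of 14 tested genes for propeptide cleavage and crosslinking, 7 rose and 1 fell in E10 AoD against E9 AoD, and 3 rose and 2 fell in E10 AoV against E9 AoV. In E9 AoV against E9 AoD 5 were higher and none lower. Of all tested genes 12.6%, 11.0% and 11.8% were called in these comparisons. The stage medians were 0.91 in AoD and 0.38 in AoV. Adamts2, the protease that removes the amino end of procollagens I to III, measured 4.47, 3.49 and 1.84 RPM in E9 AoD, 21.2, 21.9 and 20.4 in E9 AoV, 7.48, 8.13 and 6.72 in E10 AoD, 33.0, 36.7 and 37.7 in E10 AoV, and 2.67, 2.82 and 2.51 in E10 UGR. It was ventral at both stages, by 2.75 at E9.5 (SE 0.21, adjusted p = 7.93e-08) and by 2.25 at E10.5 (SE 0.21, adjusted p = 7.26e-07), whereas Col1a1 differed between E10 AoV and E10 AoD by 0.54 (SE 0.172, adjusted p = 0.0248). The crosslinking enzymes Loxl4 and Loxl1 rose in dorsal tissue by 3.10 (SE 0.189, adjusted p = 6.97e-09) and 2.05 (SE 0.166, adjusted p = 1.03e-07). In E10 AoV against E10 AoD 2 genes of this list were higher and 2 lower.

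Among 6 tested collagen receptors, 3 rose in E10 AoD against E9 AoD and none was called in E10 AoV against E9 AoV, beside 12.6% and 11.0% of all tested genes called, with medians of 1.05 and 0.49. Itga11, a chain of an integrin for fibrillar collagen, measured 1.75, 2.04 and 2.24 RPM in E9 AoD, 13.6, 17.2 and 11.0 in E10 AoD, 1.58, 1.56 and 1.09 in E10 AoV, and between 0.594 and 0.719 RPM in E9 AoV. Its pattern was dorsal at both stages, with E10 AoV below E10 AoD by -3.21 (SE 0.18, adjusted p = 4.04e-09). Ddr2, the receptor kinase of fibrillar collagens, rose in dorsal tissue from 9.54, 13.1 and 9.09 RPM to 39.8, 52.3 and 43.7 RPM (2.10, SE 0.142, adjusted p = 1.93e-08). Of 11 tested genes of collagen turnover, 3 rose in AoD and 1, Mmp16, a membrane-bound metalloproteinase, rose in AoV (1.86, SE 0.128, adjusted p = 2.99e-08). The AoV count is near the 11.0% of all tested genes called, and the medians were 0.60 in AoD and 0.43 in AoV. Fap, a fibroblast protease, was dorsal at both stages, at 7.37, 6.99 and 8.42 RPM in E9 AoD and 1.07, 0.649 and 0.523 RPM in E9 AoV (-3.23, SE 0.267, adjusted p = 1.77e-07).

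Of 14 tested proteins that bind collagen fibrils, 10 rose and none fell in dorsal tissue, 3 rose and 3 fell in ventral tissue, and 6 were higher and none lower in E9 AoV than in E9 AoD, beside 12.6%, 11.0% and 11.8% of all tested genes called. Their median was 1.36 in AoD and 0.05 in AoV with stage. Lum, a leucine-rich proteoglycan that regulates fibril spacing, measured 21.8, 22.5 and 14.3 RPM in E9 AoD, 163, 174 and 190 in E9 AoV, 113, 108 and 112 in E10 AoD, 12.7, 16.2 and 15.1 in E10 AoV, and 5.39, 6.42 and 2.62 in E10 UGR. It rose in AoD (2.53, SE 0.243, adjusted p = 5.92e-07) and fell in AoV (-3.58, SE 0.243, adjusted p = 2.68e-08), and the difference between these changes was -6.11 (SE 0.344, adjusted p = 2.53e-08). Postn, a matricellular protein of collagen-rich tissue, measured 50.3, 45.3 and 22.7 RPM in E9 AoD, 580, 616 and 640 in E9 AoV, 73.8, 69.9 and 81.4 in E10 AoD, 233, 255 and 268 in E10 AoV, and 41.3, 40.1 and 37.4 in E10 UGR. It stayed ventral at both stages, by 4.03 at E9.5 (SE 0.2, adjusted p = 1.50e-09) and by 1.75 at E10.5 (SE 0.2, adjusted p = 5.81e-06).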

How the data were processed

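RNA was taken from pooled, dissected AGM tissue and sequenced as unstranded single-end reads of 50 bases in 15 libraries, 3 for each of 5 groups, grouped by the sample labels. The authors aligned the reads with TopHat and Bowtie 0.12.3 to NCBIM37 (mm9), counted them per Ensembl 58 gene, with ambiguous reads shared in proportion, and deposited RPM rounded to 3 significant digits. RPM depends on the other genes of a library and is not adjusted for length. The 12 columns with the authors' own fold changes and adjusted p-values were not used.

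All 18553 of 28876 genes with at least 0.5 RPM in 1 library were fitted with limma 3.58.1 (R 4.3.3) on log2(RPM + 0.1), with 1 mean per group, a trended variance and Benjamini-Hochberg adjustment; the code was tested on simulated data. The p-values measure the spread between pools of embryos from 3 experiments. Depth was inferred from the steps between low values. Only between 64.8% and 67.6% of the low values of a library fitted whole reads, so no count test was run. Levels per kb used the longest coding transcript in the annotation, in which 40 of the 41 gene IDs were found; Col22a1 has none.

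Values in every library are given for genes called in at least 2 of the 7 comparisons and for the 2 most abundant genes per kb of each class. Fold changes are given for up to 5 called genes with the largest change in each direction per comparison and for chains of types I to VI, IX and XI where they are described, and of the partner lists for the leading called genes of a comparison. Further values of Col14a1, Col15a1, Col16a1, Col18a1, Col20a1, Col23a1 and Col25a1, and the markers named, were chosen after they were seen. The collagen genes, their classes and the lists of partners and markers were chosen with earlier results of these data known. In E9 AoV and E9 AoD libraries of the same number deviated together (correlations of 0.452, 0.347 and 0.19). Same-number correlations were also positive at E10.5, from 0.042 to 0.205 for AoV and AoD. They were 0.044 to 0.339 for AoD and UGR, and 0.089 to 0.168 for AoV and UGR. Between stages they lay from -0.072 to 0.163. The numbers may thus pair samples within a stage, from the data and not from a label. Alternatives were other pseudocounts, filters and scalings, a replicate block, the compared groups alone, no fold threshold, and leaving out each library.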

Additional observations from a re-analysis of the deposited data

Results flagged for a closer look

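For 21 collagen genes the stage change, E10.5 over E9.5, differed between AoV and AoD by the interaction test, with the value given as the AoV change minus the AoD change in log2. Among fibrillar chains it was -2.48 for Col1a1, -2.19 for Col5a2, -2.11 for Col11a1, -1.85 for Col3a1, -1.78 for Col11a2, -1.66 for Col1a2, -1.54 for Col2a1 and -1.36 for Col5a1. Among the type VI and type VIII chains it was -3.72 for Col6a3, -1.64 for Col6a1, -1.51 for Col6a2, -1.60 for Col8a2 and 2.19 for Col8a1. Among the fibril-associated chains it was -3.21 for Col9a2, -2.77 for Col9a3, -2.48 for Col19a1, -1.68 for Col14a1, -1.38 for Col9a1 and -1.28 for Col20a1. It was -2.38 for Col23a1 and -1.40 for Col4a4. The value of Col4a4 was not called under 12 of 23 alternatives: it was -0.45 with a pseudocount of 1 RPM, and between -1.47 and -1.07 without E9 AoD replicate 1 or 3, E9 AoV replicate 2 or 3, E10 AoD replicate 1 or 2, or E10 AoV replicate 2. These values rest on different movements. Col6a3 and Col23a1 rose in AoD and fell in AoV, Col8a1 rose in AoV, and most others rose in AoD with an AoV change that was not called. Groups of 3 libraries were too small to test single libraries as outliers.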

How the results depend on the processing

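Over all alternatives, 91 of 109 calls of a collagen gene in a comparison were kept under each, 18 were lost under at least 1, and none reversed. With no fold threshold the collagen genes past the adjusted p were 25 in E10 AoV against E9 AoV, 24 in E10 AoV against E10 AoD, 27 in E9 AoV against E9 AoD, 25 in E10 AoV against E10 UGR 29 in E10 AoD against E10 UGR, 32 in E10 AoD against E9 AoD and 28 for the interaction, beside 46.0%, 35.5%, 47.7%, 29.1%, 39.2%, 57.8% and 28.1% of all tested genes. Leaving out each library in turn gave from 5 to 7 calls in E10 AoV against E9 AoV, 23 in E10 AoD against E9 AoD, 15 in E10 AoV against E10 AoD, 14 to 16 in E9 AoV against E9 AoD, 10 to 11 in E10 AoV against E10 UGR, 18 to 20 in E10 AoD against E10 UGR and 20 to 23 for the interaction. The replicate block left 6, 23, 15, 14, 11, 19 and 21 calls in the 7 comparisons, the same counts as without it. Calls near a fold of 2 were lost with other scalings or without 1 library: Col5a2 in E10 AoV against E10 UGR was 0.95 without E10 UGR replicate 3 and 0.99 without E10 AoV replicate 2. Calls at low level were lost with larger pseudocounts: Col19a1, Col20a1 and Col4a4, Col9a2 in E10 AoV against E10 UGR (0.93) and Col11a2 at E9.5 (-0.99), both with 1 RPM. The Col4a4 interaction was lost under 12 alternatives, with adjusted p up to 0.0948. Quantile normalization moved the median of all genes by -0.12 in E9 AoV against E9 AoD. Values under 0.5 RPM rest on few reads, which limits Col4a4, Col19a1 and the 4 genes not tested.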
